A study of Homo sapiens with 24 samples.

Results

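From the aldehyde dehydrogenases outside the ALDH1A group, 10 were examined in triple negative breast cancer (TNBC) cells: ALDH2, ALDH1B1, ALDH1L2, ALDH3A1, ALDH3A2, ALDH3B1, ALDH4A1, ALDH7A1, ALDH9A1 and ALDH18A1. They were found by gene symbol among the 19 human aldehyde dehydrogenases, and all 10 had a row in each of the 4 deposited tables, which listed 19283 genes for Hs578T, 18248 for HCC70, 60651 for KIF20A depletion and 23792 for KIF20A overexpression. The series holds 24 poly-A RNA-Seq libraries, 3 for each of 8 conditions. From wild-type Hs578T and HCC70 cells, breast cancer stem cells (BCSCs) were sorted by CD24-CD44+ surface staining and aldehyde dehydrogenase (ALDH) activity, and cells negative for both markers were taken as non-BCSCs. Cells labelled MDA-MB-231 carried control sgRNA (sgCtrl) or KIF20A sg1, or an empty vector (EV) or the construct labelled KIF20A OE. KIF20A is a mitotic kinesin that the study examined as a regulator of BCSCs. Each pair of conditions was deposited as a table of its own and was treated as 1 batch, and the sample titles name no batch. Cell line, experiment and any batch therefore cannot be told apart. The study calls the replicates biological triplicates, but nothing says that they came from separate sorts or transductions. Each p-value therefore measures the spread between these 3 libraries.

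Aldehyde dehydrogenases oxidize aldehydes to acids with NAD or NADP as the cofactor. The ALDH activity assay used to sort stem-like cells measures trapped fluorescent product and does not identify the isoform, and ALDH1A1 and ALDH1A3, which make retinoic acid, are the isoforms most often linked with it in breast cancer. The 10 members work elsewhere in metabolism. ALDH2 and ALDH1B1 are mitochondrial enzymes that oxidize acetaldehyde and lipid peroxidation products. ALDH1L2 is the mitochondrial 10-formyltetrahydrofolate dehydrogenase. ALDH3A1, ALDH3A2 and ALDH3B1 oxidize aromatic, fatty and other lipid aldehydes. ALDH4A1 completes proline breakdown to glutamate, and ALDH18A1 runs in the opposite direction, from glutamate toward proline and ornithine. ALDH7A1 acts in lysine breakdown, and ALDH9A1 oxidizes aminoaldehydes on the way to carnitine and GABA.

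In the GENCODE annotation of GRCh38, ALDH2 lies on chromosome 12 from 111766887 to 111817532 on the plus strand and ALDH1L2 on the same chromosome from 105019784 to 105107643 on the minus strand. ALDH3A1 and ALDH3A2 are neighbors on chromosome 17, from 19737984 to 19748943 on the minus strand and from 19648136 to 19685760 on the plus strand. ALDH7A1 lies on chromosome 5 from 126531200 to 126595362 on the minus strand and ALDH3B1 on chromosome 11 from 68008578 to 68029282 on the plus strand. The coding part of ALDH1B1 (chromosome 9, 38392702 to 38398661) is known to be uninterrupted, and its main transcript has 2 exons, against 23 in that of ALDH1L2. Exons of other annotated genes on the same strand overlap 680 of 9723 exon bases of ALDH2 and 103 of 3007 of ALDH9A1. Those on the opposite strand overlap 98 of 3878 of ALDH3A1 and 276 of 9493 of ALDH1L2. Libraries were made with a stranded kit, but the strand setting of the counting is not given in the sources used here, so reads in these stretches cannot be assigned with certainty.

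RefSeq promoter windows were available for 7 of the 10 members, with 10 start sites in all, and no entry was available for ALDH2, ALDH1L2 or ALDH3A1. The 250 bases before the start are shown for 3 members whose windows hold no annotated exon: ALDH1B1 and ALDH18A1, which were higher in the libraries labelled KIF20A OE, and ALDH3B1, which was lower there (values below). Bases are from GRCh38.p14 and read 5′ to 3′ on the strand of the gene. Capitals mark GC boxes (GGGCGG) and CCAAT boxes (CCAAT), searched on both strands.
ALDH1B1 chr9:38392452-38392701 (+): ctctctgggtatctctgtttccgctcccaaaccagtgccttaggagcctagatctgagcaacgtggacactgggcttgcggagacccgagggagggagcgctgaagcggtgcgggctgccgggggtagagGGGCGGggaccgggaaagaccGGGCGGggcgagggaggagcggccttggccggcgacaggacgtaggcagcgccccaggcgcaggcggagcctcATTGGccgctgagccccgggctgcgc
ALDH18A1 chr10:95656712-95656961 (-): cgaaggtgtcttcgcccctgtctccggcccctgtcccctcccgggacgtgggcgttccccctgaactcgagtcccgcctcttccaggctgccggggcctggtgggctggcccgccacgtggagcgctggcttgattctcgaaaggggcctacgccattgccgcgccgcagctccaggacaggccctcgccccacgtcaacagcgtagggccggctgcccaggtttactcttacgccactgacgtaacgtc
ALDH3B1 chr11:68008297-68008546 (+): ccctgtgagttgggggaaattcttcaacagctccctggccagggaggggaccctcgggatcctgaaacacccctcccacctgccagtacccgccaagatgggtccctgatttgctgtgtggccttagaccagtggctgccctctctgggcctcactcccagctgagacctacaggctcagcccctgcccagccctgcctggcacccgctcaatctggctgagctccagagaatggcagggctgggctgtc
The ALDH1B1 window held 2 GC boxes and 1 CCAAT box, and the ALDH18A1 window and the upstream of the 2 ALDH3B1 windows held neither. CpG dinucleotides numbered 23 for ALDH1B1, 24 for ALDH18A1 and 3 for this ALDH3B1 start, against a median of 11 over 35116 promoters. The downstream ALDH3B1 start, on chromosome 11 with its window at 68010077 to 68010326, had 11 CpGs and 2 GC boxes. Of the windows without an annotated exon that are not shown, that of ALDH4A1 had 2 CpGs and the upstream one of ALDH3A2 had 9. Both held neither box. ALDH4A1 was also called higher under the KIF20A OE label, and a relation between CpG number and direction was not tested. Over the 10 windows, a GC box was found in 6 (42.6% of all promoters hold one) and a CCAAT box in 3 (32.0% of all). No window held a TATA box (TATAAA, 10.7% of all), an AP-1 site (TGANTCA, 6.57%), an antioxidant response element (TGACNNNGC, 10.9%) or an amino acid response element (TGATGNAA, 3.14%). The dioxin response core (GCGTG, 32.2% of all) was found in 1, the downstream ALDH3A2 window. GC boxes and dioxin cores may share bases, and a match describes letters only.

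Recovered reads per library ran from 28402681 to 33973164 for Hs578T and from 24983606 to 33985436 for HCC70. In the libraries labelled MDA-MB-231 they ran from 41424338 to 51018667 under KIF20A depletion and from 15971297 to 22182293 under overexpression. All 8 mesenchymal markers reached 1 TPM in Hs578T and all 8 breast epithelial markers did in HCC70. Of 7 blood and stroma markers, 1 or 2 reached 1 in each group. Of the hormone receptor genes, 1 or 2 of 3 did. The targeted gene KIF20A was at 153, 173 and 156 normalised units in sgCtrl and 122, 145 and 91.1 in KIF20A sg1 libraries, below every control. In EV it was at 101.1, 143 and 124 CPM, and libraries labelled KIF20A OE had 1348, 269 and 896 CPM. These last libraries differed from EV far beyond KIF20A. All 10 MDA-MB-231 markers were called lower, beside 23.4% of all genes tested. CD44 was at 523 to 788 CPM in EV but 0.125 to 1.23 CPM under the KIF20A OE label. Of 10 kidney and neurofilament genes, 9 were called higher, beside 46.2% of all genes tested. Only 2 of these 10 reached 1 CPM in any EV library, so most entered the test through the libraries in which they were high. Their count is a description, and both lists were chosen with earlier results known. IRS4 was at 0 in EV and had a mean of 1571 CPM under the KIF20A OE label. The labels name MDA-MB-231 for these libraries too, and their cell identity was not tested. Every result for KIF20A OE below is therefore a difference between these libraries and EV, and whether it follows from KIF20A cannot be told apart from the other differences.

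The first question was which members TNBC cells expressed, on the TPM scale, which corrects for transcript length. In Hs578T non-BCSCs the order was ALDH3A2 (88.4 ± 4.48 TPM, SD, n = 3), ALDH9A1 (71.0 ± 2.46), ALDH18A1 (59.1 ± 1.68), ALDH1B1 (42.7 ± 1.70), ALDH7A1 (41.7 ± 0.857), ALDH1L2 (20.2 ± 0.731), ALDH4A1 (9.14 ± 0.639) and ALDH3B1 (7.04 ± 0.496), with ALDH3A1 and ALDH2 near 0. Neighbors in this order did not overlap except ALDH1B1 with ALDH7A1 and ALDH3A1 with ALDH2. In HCC70 non-BCSCs, ALDH3A2 (75.7 ± 1.54 TPM) and ALDH2 (74.6 ± 1.69) led with overlapping values, followed by ALDH18A1 (57.9 ± 3.02), ALDH9A1 (56.9 ± 1.97), ALDH1B1 (41.3 ± 1.45), ALDH1L2 (32.4 ± 1.77), ALDH7A1 (23.1 ± 1.16), ALDH4A1 (20.3 ± 3.20), ALDH3B1 (11.7 ± 0.620) and ALDH3A1 (0.624 ± 0.145). ALDH3A2 thus headed the list in non-BCSCs of both lines, and ALDH2 stood next to it in HCC70 and last in Hs578T. In BCSCs the order was the same in Hs578T, and in HCC70 ALDH2 stood before ALDH3A2.

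**Figure D1:**
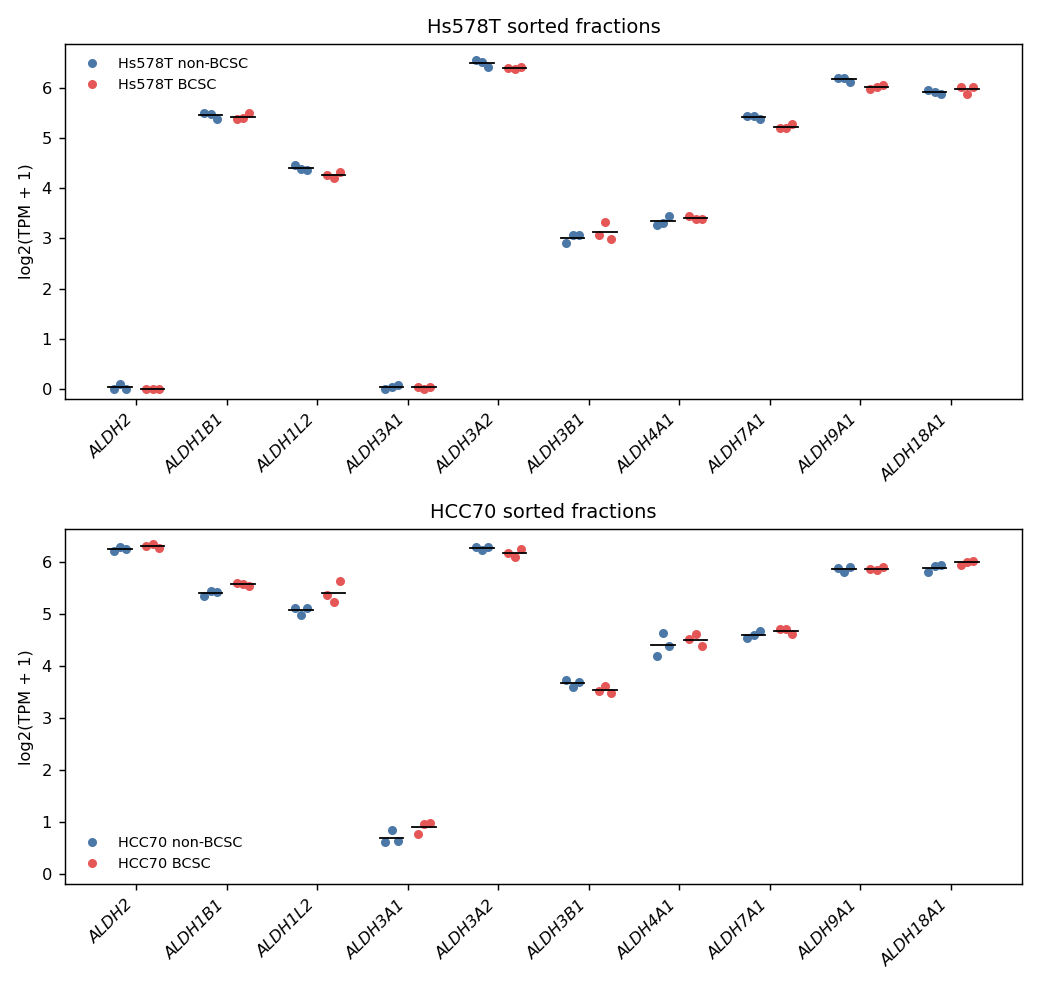
Levels of the 10 members in the sorted fractions of Hs578T (upper) and HCC70 (lower), as log2(TPM + 1), with 1 point per library, blue for non-BCSCs, red for BCSCs and a black line for the mean of 3. ALDH2 lies at 0 in 5 of the 6 Hs578T libraries and above 6 in all 6 HCC70 libraries, while the 2 fractions of a line lie close together for every member.

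ALDH2, the main mitochondrial acetaldehyde dehydrogenase, was listed at 0, 0.0741 and 0 TPM in the 3 Hs578T non-BCSC libraries and at 0 in all 3 BCSC libraries. At this depth, 3 reads of ALDH2 correspond to 0.111 TPM, so every Hs578T library was below the level of 3 reads. In HCC70 it was at 73.0, 76.4 and 74.3 TPM in non-BCSCs and 77.3, 79.8 and 75.7 TPM in BCSCs. The 2 tables were normalized separately and may hold different batches, so the line difference was not tested. ALDH1B1, the closest mitochondrial relative of ALDH2, was close to its HCC70 level in Hs578T, with means of 42.7 TPM for non-BCSCs and 41.8 TPM for BCSCs against 39.7 to 47.4 TPM in HCC70. ALDH3A1, an enzyme abundant in the cornea, was at 0.0635 TPM or less in Hs578T and 0.528 to 0.967 TPM in HCC70, under the mean of 1 required for testing in both.

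Across the 4 sorted conditions, values of the 2 fractions of a line overlapped for most members. Mean ALDH1L2 was 41.5 TPM in HCC70 BCSCs, 32.4 in HCC70 non-BCSCs, 20.2 in Hs578T non-BCSCs and 18.2 in Hs578T BCSCs, with no overlap between neighbors. ALDH4A1 was also higher in HCC70, where its lowest value was 17.2 TPM against a highest value of 9.89 in Hs578T. ALDH7A1 and ALDH9A1 had the opposite order. Every Hs578T library exceeded every HCC70 library for ALDH7A1, with means of 41.7 and 36.4 against 24.6 and 23.1 TPM. ALDH18A1 overlapped between all neighbors in its order. These level orders span separately normalized tables and carry no test.

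Whether the sort changed the members was asked next. In Hs578T, ALDH7A1 alone passed the test, and it was lower in BCSCs. It was at 42.2, 42.1 and 40.7 TPM in non-BCSCs and 35.8, 35.7 and 37.7 TPM in BCSCs, so the groups did not overlap (log2 fold change -0.19, SE 0.0444, adjusted p = 0.0435 by limma with Benjamini-Hochberg adjustment over 13324 genes). Among all genes tested in Hs578T, 7.15% were called, 2.9% higher and 4.26% lower, so 1 of the 8 members tested is near the background. The call was lost in each of the 6 fits that left out 1 library (adjusted p 0.0525 to 0.199, log2 fold change -0.21 to -0.18), and it held with edgeR (adjusted p = 0.0142) and DESeq2 (adjusted p = 0.0180) on recovered reads.

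ALDH9A1 and ALDH1L2 also did not overlap between the Hs578T fractions and fell short of the threshold, as 29% of all genes tested did not overlap either. ALDH9A1 was at 72.5, 72.3 and 68.1 TPM in non-BCSCs and 62.2, 63.1 and 65.0 TPM in BCSCs (log2 fold change -0.16, SE 0.0448, adjusted p = 0.0803 by limma, 0.0476 by edgeR). ALDH1L2 was at 21.0, 19.9 and 19.6 TPM against 18.2, 17.3 and 18.9 TPM (log2 fold change -0.14, SE 0.0530, adjusted p = 0.159). The other members overlapped. ALDH3A2, the microsomal fatty aldehyde dehydrogenase, had a log2 fold change of -0.09 (adjusted p = 0.304), ALDH1B1 of -0.03 (0.798), ALDH18A1 of 0.06 (0.537), ALDH4A1 of 0.07 (0.576) and ALDH3B1 of 0.12 (0.516). Over the 8 members the median log2 fold change was -0.06, against -0.01 over all genes tested.

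In HCC70, none of the 9 members tested passed, beside 2.83% of all genes tested (374 of 13218, with 2.28% higher and 0.552% lower), with 2 members at an unadjusted p under 0.05. By edgeR the count was also 0 and by DESeq2 1. ALDH1L2 moved most. It was at 33.4, 30.4 and 33.5 TPM in non-BCSCs and 39.8, 36.1 and 48.7 TPM in BCSCs, without overlap (log2 fold change 0.34, SE 0.105, adjusted p = 0.114 by limma, 0.0528 by edgeR and 0.00889 by DESeq2). Without the highest library, BCSC replicate 3, the log2 fold change was 0.22. ALDH1B1 was at 39.7, 42.4 and 41.8 TPM against 47.4, 46.4 and 45.4 TPM (log2 fold change 0.16, SE 0.0528, adjusted p = 0.123). ALDH18A1 did not overlap either, at 54.4, 59.3 and 59.9 TPM against 60.3, 62.9 and 63.8 TPM (log2 fold change 0.11, adjusted p = 0.304). These 3 of 9 compare with 30.9% of all genes tested whose fractions did not overlap. The remaining log2 fold changes ran from -0.14 for ALDH3B1 (adjusted p = 0.295) to 0.10 for ALDH4A1 (0.642), with ALDH3A2 at -0.09 (0.365), ALDH9A1 at 0.01 (0.948), ALDH2 at 0.06 (0.527) and ALDH7A1 at 0.08 (0.452).

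The difference between lines was then tested with the interaction of fraction and line over the 12 sorted libraries. Of 8 members tested, 2 passed, beside 7.11% of all genes tested. For ALDH1L2 the BCSC log2 fold change was -0.14 in Hs578T and 0.34 in HCC70, a difference of 0.48 (SE 0.125, adjusted p = 0.0417 by limma). For ALDH7A1 it was -0.19 and 0.08, a difference of 0.27 (SE 0.0716, adjusted p = 0.0419). Both calls were near the threshold and were lost when most single libraries were left out, with adjusted p from 0.0196 to 0.0960 for ALDH1L2 and from 0.0302 to 0.108 for ALDH7A1. The difference was 0.19 for ALDH1B1 (adjusted p = 0.107), 0.17 for ALDH9A1 (0.122) and -0.26 for ALDH3B1 (0.208). For ALDH18A1, ALDH4A1 and ALDH3A2 it was 0.04, 0.03 and 0.00 (SE 0.0766, 0.138 and 0.0717). Line and batch cannot be told apart here.

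Mitosis genes moved with the sort in both lines. Of 12 such genes, 10 were higher in Hs578T BCSCs (summed level 1527 to 1630 TPM in non-BCSCs and 1961 to 2072 TPM in BCSCs) and 11 in HCC70 BCSCs (1130 to 1207 and 1744 to 1860 TPM). These counts stand beside 2.9% of all genes tested called higher in Hs578T and 2.28% in HCC70. The list holds CCNB1, HMMR and NEK2, which the study selected as higher in BCSCs starting from these libraries. The counts are therefore not independent of that selection. In Hs578T, 4 of 8 mesenchymal markers were lower in BCSCs, beside 4.26% of all genes tested. Sums over these 8 markers were 14662 to 14916 TPM in non-BCSCs and 11875 to 12964 TPM in BCSCs. The part of the mitosis and mesenchymal genes in the member results was not tested. In bulk libraries, fewer cells that express a gene and less RNA per cell cannot be told apart.

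Set against the whole family, the summed level of the members moved less between fractions than that of ALDH1A in Hs578T. In Hs578T non-BCSCs the 10 members summed to 327 to 348 TPM and in BCSCs to 316 to 329 TPM. The ALDH1A sum, nearly all ALDH1A3, was 280 to 296 TPM in non-BCSCs and 701 to 709 TPM in BCSCs. The members' share of the listed ALDH transcripts was therefore 50.5 ± 0.222% in non-BCSCs and 30.0 ± 0.640% in BCSCs (SD, n = 3), without overlap. ALDH1A3 itself may contribute to the activity that was sorted on, so this shift is not independent of the gate. ALDH1A1 and ALDH3B2 had no row in the Hs578T table, so the shares there are over 17 family genes.

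In HCC70 the members summed to 387 to 401 TPM in non-BCSCs and 409 to 421 TPM in BCSCs, and their share was 43.6 ± 0.797% and 42.5 ± 0.219%, with overlapping values. The ALDH1A sum was 413 to 421 TPM and 457 to 464 TPM, most of it ALDH1A1 (means 331 and 362 TPM). The remaining 6 family genes, ALDH1L1, ALDH3B2, ALDH5A1, ALDH6A1, ALDH8A1 and ALDH16A1, held 10.3 ± 0.562% and 10.1 ± 0.358%. Transcript shares say nothing of enzyme activity per transcript or of which isoforms act on the assay's substrate.

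**Figure D2:**
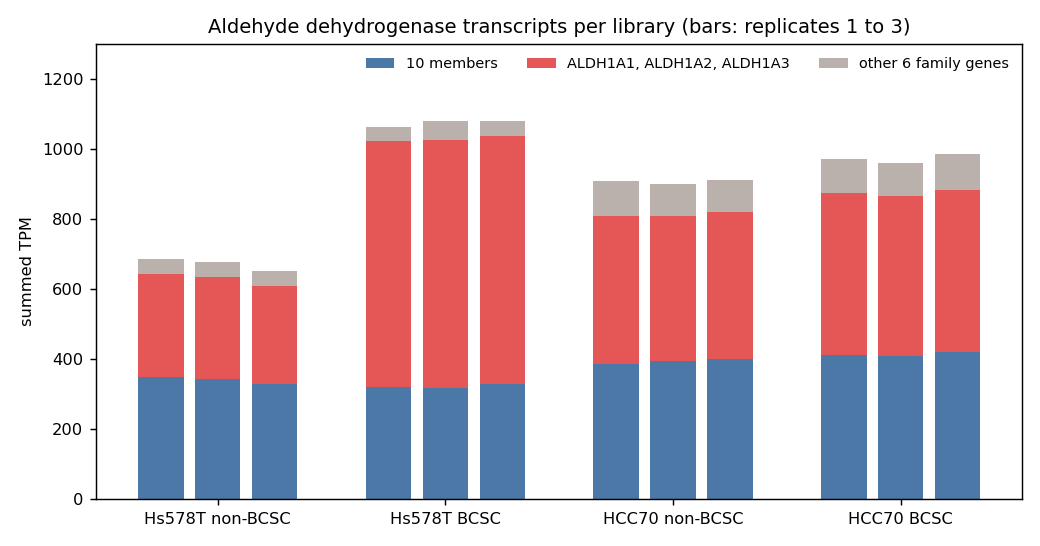
Summed TPM of aldehyde dehydrogenase transcripts in each sorted library, with 3 bars per condition. Bars stack the 10 members (blue), the ALDH1A genes (red) and the other 6 family genes (gray), of which 5 were listed for Hs578T. The blue part stays between 316 and 421 TPM in all 12 libraries, while the red part rises from 280 to 296 TPM to 701 to 709 TPM between the Hs578T fractions.

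Genes of the same pathways were counted from lists, to be read beside the 7.15% of all genes called in Hs578T and 2.83% in HCC70. None of the proline, ornithine and glutamate genes tested passed in Hs578T (11 tested), and 1 of 11 did in HCC70, GOT1, the cytosolic aspartate aminotransferase (42.3 ± 3.75 and 58.8 ± 2.29 TPM, log2 fold change 0.47, SE 0.0739, adjusted p = 0.0242). The folate one-carbon list, to which ALDH1L2 is linked, gave 0 of 14 in either line, with medians of 0.02 in Hs578T and 0.08 in HCC70. The sphingolipid and fatty aldehyde list of ALDH3A2 also gave 0 of 14 in either line. In the alcohol and aldehyde turnover list, AKR1B10, an aldo-keto reductase, was lower in Hs578T BCSCs (log2 fold change -0.29, SE 0.0493, adjusted p = 0.0154), 1 of 10 tested, and 0 of 10 passed in HCC70.

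The lysine, choline, carnitine and polyamine list gave 1 of 9 in Hs578T, ODC1, the ornithine decarboxylase that opens polyamine synthesis, which was higher in BCSCs (175 ± 9.74 and 240 ± 9.71 TPM, log2 fold change 0.46, adjusted p = 0.00336), and 0 of 8 in HCC70. The aryl hydrocarbon receptor battery, to which ALDH3A1 belongs as a known target, gave 1 of 9 in each line. NQO1, a quinone reductase, was lower in Hs578T BCSCs (log2 fold change -0.32, SE 0.0537, adjusted p = 0.0133). CYP1A1, a xenobiotic oxidase, was higher in HCC70 BCSCs (6.64 ± 0.884 and 11.4 ± 0.744 TPM, log2 fold change 0.71, adjusted p = 0.0165). Across the 19 family genes, 2 of 12 passed in Hs578T, ALDH1A3 higher and ALDH7A1 lower, and 0 of 14 in HCC70, beside the same 7.15% and 2.83%.

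The patterns most like ALDH7A1 over the 12 sorted libraries, each line centred on its mean, were those of PITHD1 (Pearson's r = 0.98), TRNAU1AP (0.96) and THBS1 (0.96) among 11666 genes. THBS1, the matrix protein thrombospondin-1, had log2 fold changes of -0.44 in Hs578T and 0.17 in HCC70. For ALDH1L2 they were HEG1 (0.96), CASP2 (0.95) and SNTB2 (0.95). The points share libraries and depth, and the values are a description of the closest of many genes.

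In MDA-MB-231, KIF20A depletion was examined for the same genes, in normalised units without a length term, so levels are compared only within a gene. Of 8 members tested, none passed by limma, beside 0% of all 12852 genes tested, and 1 member had an unadjusted p under 0.05. By edgeR and DESeq2 no member was called either, with 0 and 16 genes called in all. At an unadjusted p under 0.05 there were 899 genes by limma. ALDH3A2 had the lowest p. It was at 57.1, 49.5 and 49.6 in sgCtrl and 67.3, 71.0 and 64.6 in KIF20A sg1 libraries, without overlap (log2 fold change 0.37, SE 0.121, adjusted p = 0.690 by limma).

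ALDH7A1 and ALDH1B1 lay lower in every KIF20A sg1 library than in any control. ALDH7A1 was at 73.7, 85.9 and 87.8 in sgCtrl and 71.3, 73.2 and 61.8 in KIF20A sg1 libraries (log2 fold change -0.26, SE 0.127, adjusted p = 0.694). ALDH1B1 was at 74.1, 72.9 and 78.7 against 66.1, 66.0 and 69.1 (log2 fold change -0.16, SE 0.112, adjusted p = 0.752). With ALDH3A2 these are 3 of 8 members without overlap, and 13% of all genes tested showed none. ALDH4A1 overlapped at the edge, at 21.9, 22.9 and 18.4 against 16.2, 18.5 and 16.5 (log2 fold change -0.29, SE 0.148, adjusted p = 0.696).

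ALDH18A1 was the steadiest member here, at 151, 150 and 150 in sgCtrl and 149, 154 and 153 in KIF20A sg1 libraries (log2 fold change 0.02, SE 0.107). ALDH2 was at 45.9 to 55.9 and 41.1 to 48.7 (log2 fold change -0.18, SE 0.135) and ALDH9A1 at 81.6 to 99.3 and 80.0 to 88.6 (-0.07, SE 0.122). ALDH3B1 varied within each group, at 40.1, 48.4 and 32.2 and at 44.3, 47.3 and 23.6, so its log2 fold change of -0.11 had an SE of 0.242 and became 0.20 without KIF20A sg replicate 3 and 0.03 without sgCtrl replicate 2. ALDH1L2, at 0.622 to 1.29 and 0.668 to 1.42 (28 to 68 reads), and ALDH3A1, at 0.160 to 0.492 and 0.239 to 0.314 (8 to 24 reads), were below the minimum for testing. No member was called in any of the 6 fits that left out 1 library. No gene of the 6 pathway lists passed, with medians from -0.13 for alcohol and aldehyde turnover to 0.17 for the aryl hydrocarbon receptor battery.

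**Figure D3:**
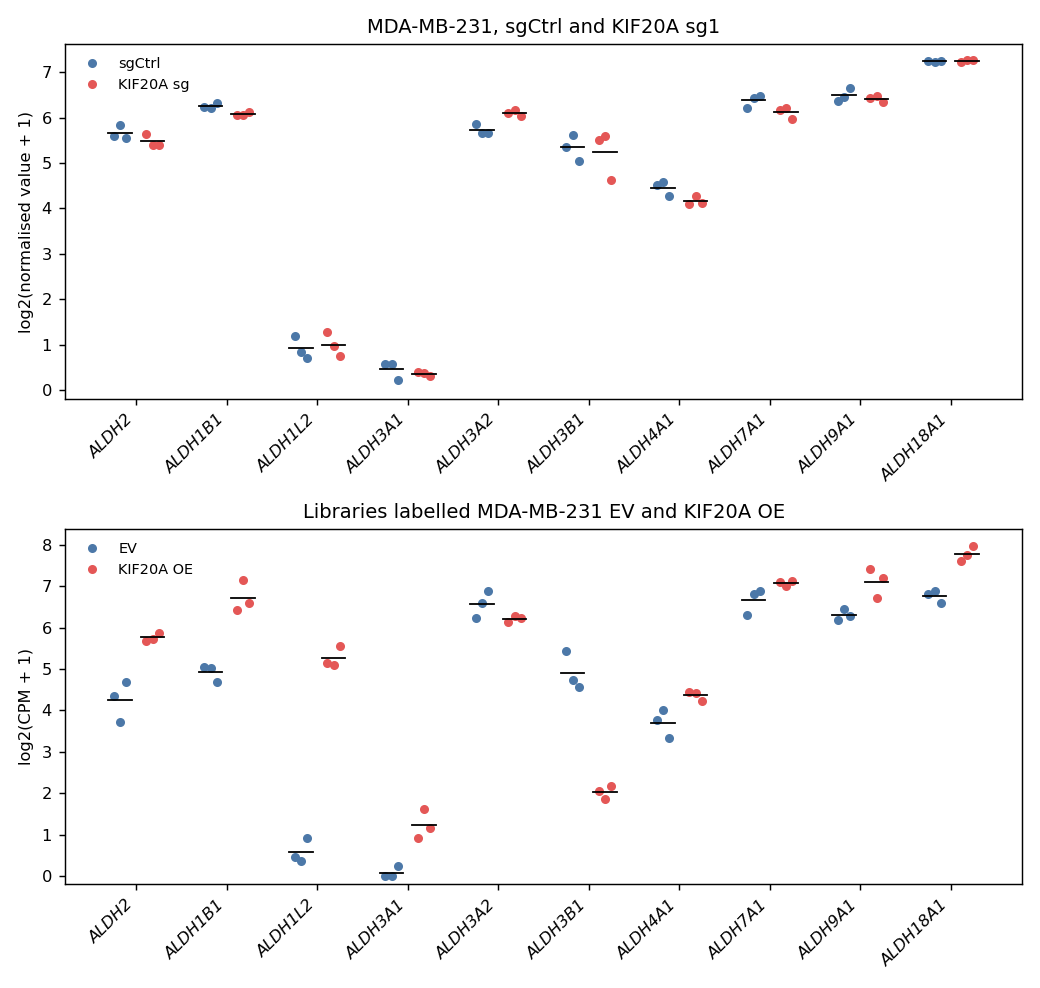
Levels of the 10 members in the experiments labelled MDA-MB-231, with 1 point per library and a black line for the mean of 3. The upper panel shows log2(value + 1) of normalised values for sgCtrl (blue) and KIF20A sg1 (red). The lower panel shows log2(CPM + 1) for EV (blue) and libraries labelled KIF20A OE (red). The upper groups lie close together, and in the lower panel ALDH1L2 is near 0.5 in EV and above 5 under the KIF20A OE label while ALDH3B1 falls from about 5 to about 2.

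In the libraries labelled KIF20A OE, 8 of 9 members tested passed, 7 higher and 1 lower than EV, of which ALDH1L2 reached the minimum only through the libraries in which it was high. Among all 15265 genes tested, 69.7% were called (46.2% higher and 23.4% lower), so the members' count is near the background of these libraries. Values of 8 of the 9 did not overlap between groups, nor did those of 74.1% of all genes tested. The median log2 fold change over the 9 members, ALDH1L2 included, was 0.81, against 0.37 over all genes. With libraries scaled by the median of ratios the latter was 0.03, and the calls split into 5129 higher and 5007 lower, against 7055 and 3579 before. Log2 fold changes of the members are therefore also given minus 0.37.

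ALDH1L2 was at 0.381, 0.290 and 0.882 CPM in EV, from 6 to 15 reads, and at 34.2, 33.2 and 46.1 CPM under the KIF20A OE label (log2 fold change 4.68 on the log2(CPM + 1) scale, or 4.31 above the median gene). Because it entered the test through its high group, this is a description and no p is given. ALDH1B1 was at 32.0, 31.4 and 24.9 CPM against 85.5, 141 and 95.9 CPM (log2 fold change 1.81, SE 0.202, adjusted p = 8.5e-05 by limma, 1.44 above the median gene). ALDH2 was at 19.3, 12.2 and 24.8 CPM against 50.5, 52.0 and 57.6 CPM (log2 fold change 1.51, SE 0.237, adjusted p = 0.000594, 1.14 above the median gene). Groups did not overlap for either gene.

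ALDH18A1, the entry enzyme of proline synthesis, was at 112, 117 and 95.3 CPM in EV and 193, 215 and 251 CPM under the KIF20A OE label (log2 fold change 1.01, SE 0.137, adjusted p = 0.000252, 0.64 above the median gene). ALDH9A1 was at 71.8, 86.4 and 76.3 CPM against 170, 105 and 145 CPM (log2 fold change 0.81, SE 0.182, adjusted p = 0.00415, 0.44 above the median gene). ALDH4A1 was at 12.6, 15.0 and 9.05 CPM against 20.9, 20.4 and 17.7 CPM (log2 fold change 0.67, SE 0.207, adjusted p = 0.0195, 0.29 above the median gene). ALDH7A1 was at 78.7, 111 and 116 CPM against 137, 128 and 139 CPM (log2 fold change 0.42, SE 0.159, adjusted p = 0.0429, 0.05 above the median gene). The calls of ALDH4A1, ALDH7A1 and ALDH9A1 were lost with median of ratios scaling (adjusted p 0.215, 0.758 and 0.0618), and also with edgeR and DESeq2.

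ALDH3B1, a membrane-bound enzyme for lipid aldehydes, was the member that fell. It was at 41.9, 25.8 and 22.7 CPM in EV and 3.13, 2.61 and 3.48 CPM under the KIF20A OE label, from 50 to 65 reads (log2 fold change -2.89, SE 0.251, adjusted p = 2.1e-05, -3.26 against the median gene). ALDH3A2 was at 73.7, 95.1 and 116 CPM against 69.2, 76.4 and 74.4 CPM, with overlap (log2 fold change -0.35, SE 0.169, adjusted p = 0.0978, -0.72 against the median gene), and it was called lower with median of ratios scaling (log2 fold change -0.71, adjusted p = 0.00363). ALDH3A1 was at 0, 0 and 0.176 CPM (3 reads in 1 library) against 0.877, 2.07 and 1.23 CPM (14 to 46 reads). It stayed below the minimum, and no fold is given.

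**Figure D4:**
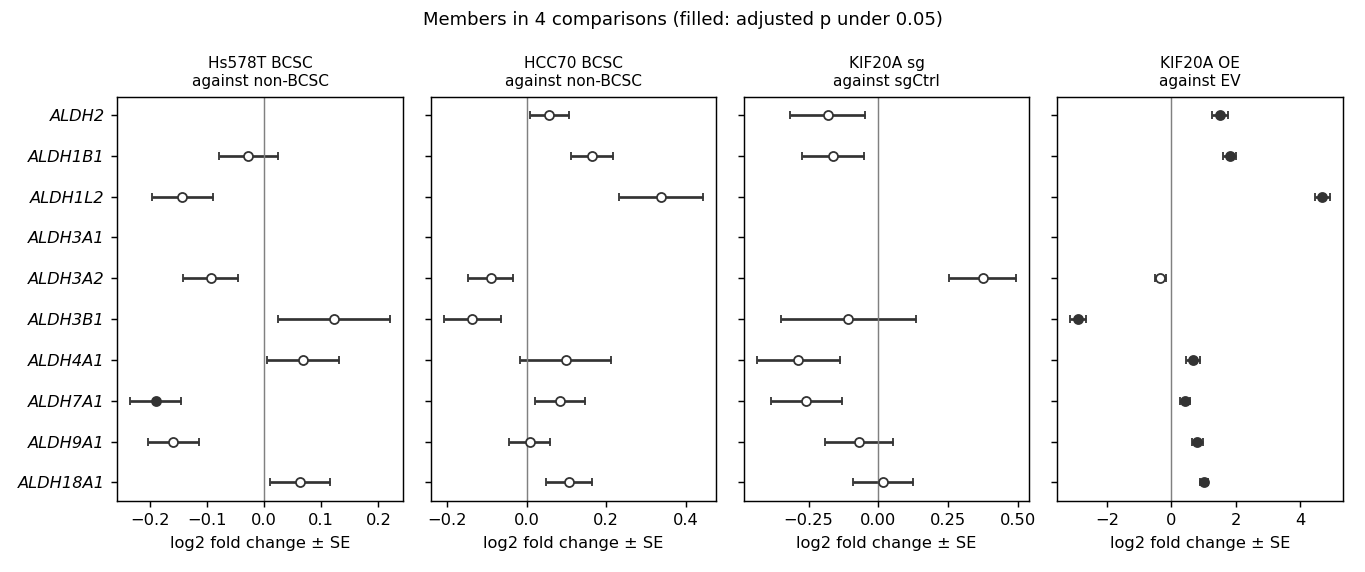
Log2 fold change ± SE of each member tested in the 4 comparisons, on the log2(value + 1) scale with a horizontal axis of its own per panel, filled where the adjusted p was under 0.05. ALDH7A1 is the 1 filled point among the sorted fractions, no point is filled for KIF20A sg, and 8 of 9 are filled for KIF20A OE, where ALDH1L2 lies at 4.68 and ALDH3B1 at -2.89. The ALDH1L2 point for KIF20A OE is a description, because this gene reached the minimum only through the libraries in which it was high.

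Pathway genes of these members moved widely in the same libraries, whose median gene stood at 0.37. The background was 69.7% called, with 46.2% higher and 23.4% lower, and this split depended on the scaling. Log2 fold changes in these lists are given without subtracting it. Of 14 folate one-carbon genes tested, 9 were higher and 2 lower (median log2 fold change 0.81). MTHFD2, the mitochondrial methylenetetrahydrofolate dehydrogenase, and GCSH had log2 fold changes of 2.50 and 1.59. Over the whole folate list, log2 fold changes ran from -0.87 to 3.03. Of 11 proline, ornithine and glutamate genes, 8 were higher and 2 lower (median 0.59), with OAT, the ornithine aminotransferase, at 1.60 and GOT2 at 1.12. Values of this list ran from -0.84 to 1.60, and no lower gene is named for it or for the folate list. The lists nearest to the other members were more mixed. Of 14 sphingolipid and fatty aldehyde genes 4 were higher and 3 lower (median 0.25), of 9 alcohol and aldehyde turnover genes 3 and 2 (0.27), of 11 lysine, choline, carnitine and polyamine genes 3 and 2 (0.21), and of 6 aryl hydrocarbon receptor battery genes 2 and 4 (-1.18). AOX1, an aldehyde oxidase, had a log2 fold change of -7.13, FAR2, a fatty acyl-CoA reductase, of 3.64 and AHR, the aryl hydrocarbon receptor, of -3.80. Values of the lysine, choline, carnitine and polyamine list, of which no gene is named here, ran from -2.36 to 4.35.

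Of the 9 family genes outside the members, 6 were tested in these libraries and 4 passed, beside 69.7% of all genes. ALDH1A2 and ALDH8A1 reached the minimum only through the libraries in which they were high, so their values are a description. ALDH1A2, a retinaldehyde dehydrogenase, was at 0 to 0.0967 CPM in EV (2 reads in 1 library) and 43.2 to 131 CPM under the KIF20A OE label. ALDH5A1, of GABA breakdown, was at 5.57 to 18.9 CPM against 64.3 to 94.4 CPM (log2 fold change 2.77, SE 0.370, adjusted p = 0.000237, 2.39 above the median gene). ALDH1A3 had a log2 fold change of 1.74, or 1.37 above the median gene, and ALDH8A1 was at 0.381 to 0.529 CPM against 1.66 to 3.25 CPM. ALDH1A1 was at 0 in every EV library and 0.250 to 2.73 CPM under the KIF20A OE label.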

How the data were processed

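Values of 10 genes were examined in 24 poly-A RNA-Seq libraries. The submitters' processing notes list HISAT2 2.0.5, featureCounts 1.5.0-p3 and GRCh38, and the annotation is not given in the sources used here. Sorted cells were deposited as TPM, which corrects for transcript length and library total. For the depletion experiment the deposited values are a signal, namely read numbers over a library factor without a length term. The overexpression values were deposited as CPM. Whole reads were recovered under depletion and overexpression, with 100% of the values checked within 0.01 of a whole read. For the sorted lines, whole reads were found for 100% of genes by a search whose tolerance grew with the read number. This share is therefore no measure of precision there. Of 17141 genes in both lines, 95.7% gave the same length in both before common divisors were undone. The edgeR and DESeq2 results for the sorted lines rest on these reads.

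A gene entered a fit if its mean there was 1 or more. Tests used log2(value + 1) in limma 3.58.1 (R 4.3.3) with a trend, were two-sided and were adjusted by Benjamini-Hochberg over every gene in the fit, at a threshold of 0.05. This scale understates changes of low genes. Fraction by line was an interaction over 12 libraries. The code was tested on simulated data with changes built in. Of 1.5-fold changes, 93.8% were recovered for Hs578T and 87.3% for HCC70. For KIF20A depletion 20.6% were recovered and for overexpression 5.97%. A member not called there may still have changed by that much. Alternatives were a pseudocount of 0.1, no minimum, median of ratios scaling, recovered reads in edgeR 4.0.16 or DESeq2 1.42.0, a replicate block, and leaving out each library. Groups came from the sample titles. For the KIF20A sg libraries, the titles alone do not say whether the number is a guide or a replicate. They were read as replicates of sg1, after the deposited column names and the study's statement that sgRNA #1 was used.

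The members and gene lists were chosen with earlier results of these data known. The genes named are the 10 members, the 9 other aldehyde dehydrogenases and, from each pathway list, at most 4 per comparison among those past the threshold, beside markers and KIF20A. Pathway genes were to be those with the largest change, but for KIF20A OE the gene with the largest change was not always named. Likeness was computed for the member with the largest change among those called in a line, or with the smallest p where none was, and the 3 genes of highest Pearson's r are given. Loci came from GENCODE 44 and promoters from RefSeq on GRCh38.p14. Python 3.11.15 with numpy 2.4.6, pandas 2.3.3 and matplotlib 3.10.9 served for tables and plots. Read numbers speak to counting error only.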

Additional observations from a re-analysis of the deposited data

Results flagged for a closer look

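Among 12 aldehyde dehydrogenases tested, the BCSC difference of 4 differed between Hs578T and HCC70 by the interaction of fraction and line (limma, adjusted over 11666 genes, of which 7.11% were called). As HCC70 minus Hs578T on the log2 scale, it was 0.48 for ALDH1L2 (adjusted p = 0.0417), 0.27 for ALDH7A1 (adjusted p = 0.0419), 0.36 for ALDH6A1 (adjusted p = 0.0327) and -1.12 for ALDH1A3 (adjusted p = 2.1e-05). ALDH1L2 and ALDH7A1 were lower in BCSCs in all 3 libraries of Hs578T, ALDH1L2 was higher in all 3 of HCC70, and ALDH7A1 overlapped there. Leaving out 1 library took the adjusted p as high as 0.0960 for ALDH1L2 and 0.108 for ALDH7A1.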

How the results depend on the processing

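Replicate numbers did not pair the libraries: correlations of deviations between libraries with the same number ran from -0.063 to 0.046 in Hs578T, -0.074 to 0.185 in HCC70, -0.161 to -0.045 under depletion and 0.014 to 0.058 under overexpression. With the replicate block the members called were 0 in Hs578T (main 1), 0 in HCC70, 0 under depletion, 8 under overexpression and 1 for the interaction (main 2), and the genes called were 669 in Hs578T, 128 in HCC70 and 302 for the interaction. In Hs578T edgeR called 2 members, and leaving out 1 library gave 0 to 1. In HCC70 DESeq2 called 1. For the interaction, no minimum, median of ratios and edgeR each called 1, and leaving out 1 library gave 0 to 2. Under overexpression leaving out 1 library gave 6 to 8, and the overexpression counts include ALDH1L2, which entered the test through its high group. Against 953 genes in Hs578T, edgeR called 1802, DESeq2 1475 and fits without 1 library 343 to 865. Against 374 in HCC70, edgeR called 754, DESeq2 1158, no minimum 178, median of ratios 233 and fits without 1 library 32 to 270. Under depletion 144 genes were called without sgCtrl replicate 3. Against 830 for the interaction, fits without 1 library called 291 to 1225. With median of ratios scaling, higher and lower calls were 620 and 573 in Hs578T (main 386 and 567) and 403 and 333 for the interaction (656 and 174), and edgeR gave 440 and 314 in HCC70 (301 and 73). Some values changed sign. ALDH9A1 in HCC70 was -0.0208 with median of ratios, -0.0203 with edgeR and -0.0218 with DESeq2. For the interaction, median of ratios and edgeR gave -0.0523 and -0.0392 for ALDH3A2, -0.0215 and -0.0175 for ALDH4A1 and -0.0109 and -0.000885 for ALDH18A1. Leaving out 1 library gave -0.0071 to 0.21 for ALDH4A1 and -0.0208 to 0.0267 for ALDH9A1 in HCC70, -0.29 to 0.20 for ALDH3B1 and -0.13 to 0.0071 for ALDH9A1 under depletion, and for the interaction -0.0370 to 0.0431 for ALDH3A2, -0.0749 to 0.141 for ALDH4A1 and -0.0024 to 0.0689 for ALDH18A1. The cause was not tested. Low read numbers limit ALDH3A1 throughout and ALDH1L2 in the sgCtrl, KIF20A sg1 and EV libraries.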
